A study of Mus musculus with 15 samples.

Results

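The comparison described here sets hearts given K209A NAT10 against hearts given G641E NAT10, 2 substituted forms of the same protein in the same knockout background. Its members are 6 of the 15 libraries of the study, 3 per substitution, taken by their labels, and the values were read for 15321 of 54532 annotated genes, those with at least 0.5 FPKM in 3 or more of the 15 libraries. FPKM are fragments per kilobase of gene, scaled to sequencing depth. All 6 mice were Nat10-CKO, that is, they carried a conditional knockout of Nat10. All 6 received an AAV9, an adeno-associated virus that reaches heart muscle, on day 1 after birth by injection under the skin, and their hearts were taken 12 to 14 days after the injection. The virus carried NAT10 G641E in the group CKO_G641E and NAT10 K209A in the group CKO_K209A. Expression was driven by the cTnT promoter, which is active in heart muscle cells, so that other cells of the heart were not the intended site of the transgene. The other 3 groups, with 3 libraries each, were ff_GFP (Nat10 flox/flox mice given GFP), CKO_GFP (knockout mice given GFP) and CKO_NAT10 (knockout mice given NAT10 without a substitution), and they appear below only as reference levels. Polyadenylated RNA of whole hearts was sequenced. The Cre driver of the knockout and the species of the NAT10 transgene are not given in the sources used here.

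NAT10 is an acetyltransferase of the nucleolus. It places N4-acetylcytidine on the RNA of the small ribosomal subunit and, with the adaptor Thumpd1, on transfer RNAs, and acetylation of other RNAs has been described. Binding of RNA and transfer of the acetyl group are separate functions of the protein. The title of the series names both activities, and the labels do not say which of them each substitution affects. After birth the mouse heart moves from glucose to fatty acids as its main fuel, replaces fetal by adult isoforms of contractile proteins and stops dividing. Under load or injury it turns part of this programme back, with a rise of natriuretic peptides.

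The endogenous Nat10 gene lies on the minus strand of mouse chromosome 2 (GRCm38, chr2:103721256-103761270) and its reference transcript has 29 exons and encodes 1024 residues. The codons at the numbers of the 2 substitutions are shown because they say which stretch of the protein each label points to. In both lines the codon is in capitals and the strand is that of the transcript, read from the GRCm38 genome with the GENCODE gene model.
Nat10 at the number of K209A, exon 7: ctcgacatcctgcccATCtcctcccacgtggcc
Nat10 at the number of G641E, exon 19: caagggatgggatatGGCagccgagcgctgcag
The codon at the number of G641E (chr2:103731412-103731414) reads GGC, glycine, as the label has it, and the stretch printed runs across the junction of exons 18 and 19. The codon at the number of K209A (chr2:103748231-103748233) reads ATC, isoleucine, whereas the label names lysine. The nearest lysine codons of this transcript are 196 and 239. The residue that the label K209A means in mouse NAT10 is therefore not settled here.

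Reads assigned to genes numbered 13218352 to 15912700 per library. The median tested gene had 242 reads in a library and 10% of values were at 8 reads or fewer, so levels well below 1 FPKM rest on few reads. The labels call the replicates independent and biological. Heart muscle markers were present at high levels in all 6 libraries, and of 13 markers of lung, liver, thymus, fat and skeletal muscle only Tnnt3 passed the filter, at 0.422, 0.156 and 0.593 FPKM in CKO_K209A and 0.0455, 0.446 and 0.600 FPKM in CKO_G641E. The sex of the mice is not given, and Xist, the RNA of the inactive X chromosome, was at most 0.225 FPKM in each of the 6 libraries, with Ddx3y, a gene of the Y chromosome, between 13.9 and 23.0 FPKM. Among the reference groups Xist was at 13.5 FPKM in ff_GFP replicate 1, 18.6 and 20.4 FPKM in CKO_GFP replicates 1 and 2 and 16.02 FPKM in CKO_NAT10 replicate 2, and at most 0.287 FPKM in the others, so the substitutions were compared between libraries alike in this respect and the reference groups were mixed. Mitochondrial reads made up 12.2% to 15.7% of the reads in CKO_K209A and 17.1% to 18.7% in CKO_G641E. The library size by which the authors scaled was 1.08 to 1.13 times the assigned reads in CKO_K209A and 0.971 to 0.996 times in CKO_G641E.

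The Nat10 transcript itself was slightly higher in CKO_K209A. It stood at 3.57, 3.24 and 3.82 FPKM in the 3 CKO_K209A libraries and at 2.58, 2.29 and 2.20 FPKM in the 3 CKO_G641E libraries, which do not overlap. The log2 difference, K209A minus G641E on the scale log2(FPKM + 0.5), was 0.50 ± 0.11 (SE, adjusted p = 0.00313). Nat10 averaged 4.09 ± 0.207 FPKM (SD, n = 3) in ff_GFP, 3.48 ± 0.0498 FPKM in CKO_GFP and 2.62 ± 0.497 FPKM in CKO_NAT10. Whole hearts hold many cells that are not heart muscle, the transgene has no entry of its own in the table, and whether its reads were counted under Nat10 was not tested, so these values give no transgene level.

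The 2 substitutions left hearts with widely different transcripts. With an adjusted p under 0.05 taken as a call, 6250 of 15321 genes were called (40.8%), 2998 of them higher in CKO_K209A (19.6%) and 3252 lower (21.2%). Adjusted p-values throughout are from limma with Benjamini-Hochberg adjustment over all tested genes. Of the called genes 1700 differed by 2-fold or more (11.1%), 688 upward and 1012 downward, and by 8-fold or more 23 upward and 40 downward. In 8493 genes (55.4%) the 3 libraries of one substitution all lay above the 3 of the other. The scaling sets part of the balance between directions. With total reads as the scale in place of the authors' library sizes the median of all genes moved to 0.13, with 4513 genes called higher and 2365 lower. With total reads outside the mitochondrial genes it moved to 0.08, with 3893 higher and 2727 lower. Among the 6 libraries alone the first principal component held 69.3% of the variance and separated the substitutions. The second held 9.89%, and CKO_G641E replicate 2 stood apart from the other libraries on it.

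**Figure D1:**
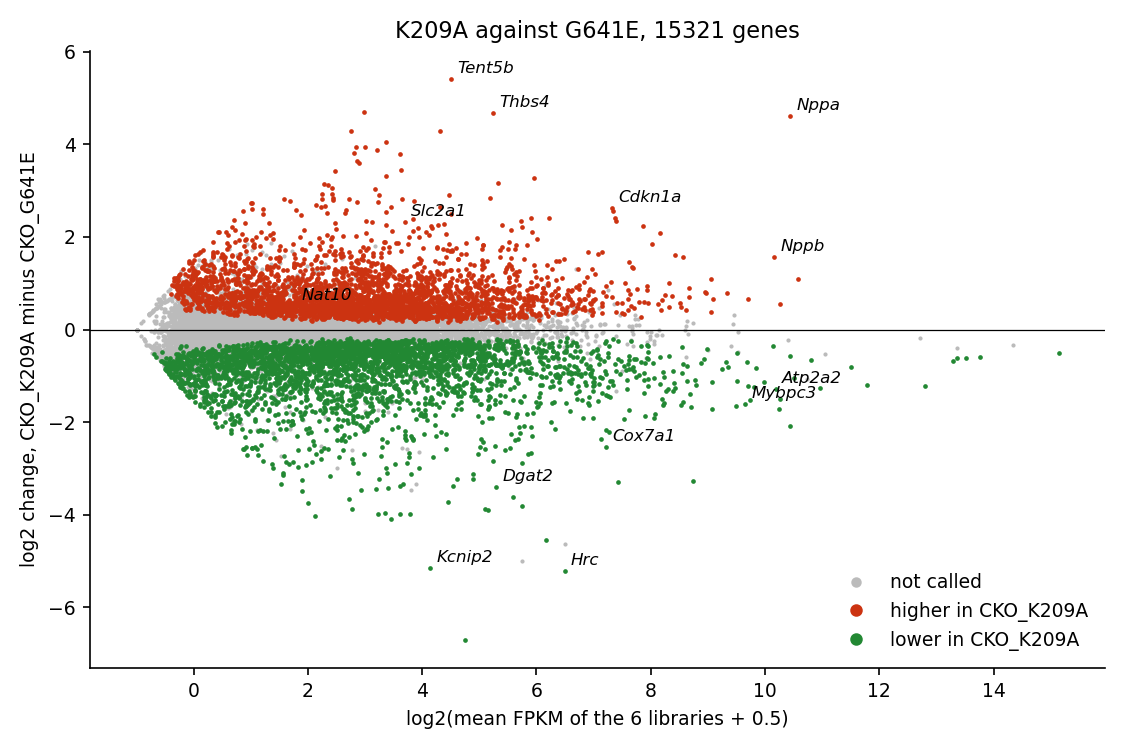
Log2 difference, K209A minus G641E, against log2(mean FPKM of the 6 libraries + 0.5) for 15321 genes. Red points were called higher in CKO_K209A (2998), green points lower (3252) and grey points were not called. Called genes occur at all levels of expression, and Nppa, Hrc and Kcnip2 lie far from 0.

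The genes that stood lowest in CKO_K209A include parts of the calcium store and of the ion channels of heart muscle. Hrc, a calcium-binding protein inside the sarcoplasmic reticulum, was at 5.10, 5.57 and 2.54 FPKM in CKO_K209A and 193, 160.2 and 171 FPKM in CKO_G641E. Every CKO_K209A library lay far below every CKO_G641E library, with a log2 difference of -5.22 ± 0.35 (SE, adjusted p = 2.30e-07). Kcnip2, an accessory subunit of the channel that carries the transient outward potassium current, was at 0.769, 0.462 and 0.220 FPKM against 37.3, 32.4 and 31.9 FPKM. The log2 difference was -5.16 ± 0.39 (SE, adjusted p = 5.57e-07). Rpl3l, the ribosomal protein that takes the place of Rpl3 in striated muscle, was at 1.02, 1.09 and 1.25 FPKM against 29.1, 22.4 and 24.6 FPKM, a log2 difference of -3.99 ± 0.19 (SE, adjusted p = 2.04e-08). Its ubiquitous counterpart Rpl3 went the other way, from 109, 105 and 119.5 FPKM in CKO_G641E to 138, 130.1 and 149 FPKM in CKO_K209A (0.32, adjusted p = 0.00607).

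Further genes among the 12 with the largest decrease, histocompatibility genes left aside, were Rxrg, a retinoid X receptor (-3.99), Dhrs7c, a dehydrogenase of the sarcoplasmic reticulum (-3.87), Hfe2, the muscle iron regulator hemojuvelin (-3.82), Rtn4r, the Nogo receptor (-3.89), and the ubiquitin ligase adaptors Asb10 (-3.96) and Asb15 (-3.75). Genes whose libraries overlapped between the substitutions could not enter the 12 lowest or the 12 highest. The lack of overlap in these genes, Hrc and Kcnip2 among them, was therefore set by the choice. Art1, an ADP-ribosyltransferase of muscle, was listed at 0 in all 3 CKO_K209A libraries and at 8.15, 8.29 and 6.81 FPKM in CKO_G641E. The 2 remaining genes, Igtp and Irgm2, are interferon-induced GTPases and varied widely among the CKO_G641E libraries. Igtp was at 24.9, 392 and 6.86 FPKM there and at 1.29, 1.22 and 1.36 FPKM in CKO_K209A (-4.55, adjusted p = 0.0475). Irgm2 was at 27.2, 173 and 4.84 FPKM against 1.18, 1.34 and 1.96 FPKM (-3.91, adjusted p = 0.0450). Leaving out any library of the pair but CKO_G641E replicate 3 ended both calls, as did, among other settings, a pseudocount of 1 or voom on recovered reads.

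The genes that stood highest in CKO_K209A include genes known to rise in strained muscle and genes of the matrix. Tent5b, of a family of enzymes that extend RNA tails, was at 43.5, 40.9 and 47.4 FPKM in CKO_K209A and 1.07, 0.278 and 0.415 FPKM in CKO_G641E, a log2 difference of 5.42 ± 0.49 (SE, adjusted p = 2.06e-06). Thbs4, a matrix glycoprotein induced in the stressed heart, was at 75.1, 80.9 and 60.9 FPKM against 2.17, 1.76 and 3.31 FPKM (4.67, adjusted p = 8.69e-09). Nppa, which encodes atrial natriuretic peptide, was at 2113, 2387 and 3477 FPKM against 138, 77.6 and 111 FPKM (4.61 ± 0.44 SE, adjusted p = 3.32e-06). In all 3 genes the lowest CKO_K209A library lay more than 10 times above the highest CKO_G641E library. The other genes of the 12 were Ankrd2, a stretch-responsive ankyrin repeat protein (4.70), Sprr1a (3.82), Fmod, the collagen-binding fibromodulin (3.94), Angptl7 (3.89), Slc10a6 (3.94), Ap1s3, a clathrin adaptor subunit (4.04), Lcn2, an iron-carrying lipocalin (4.29), and the protease inhibitors Serpina3n (4.28) and Serpinb1c (3.64).

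**Figure D2:**
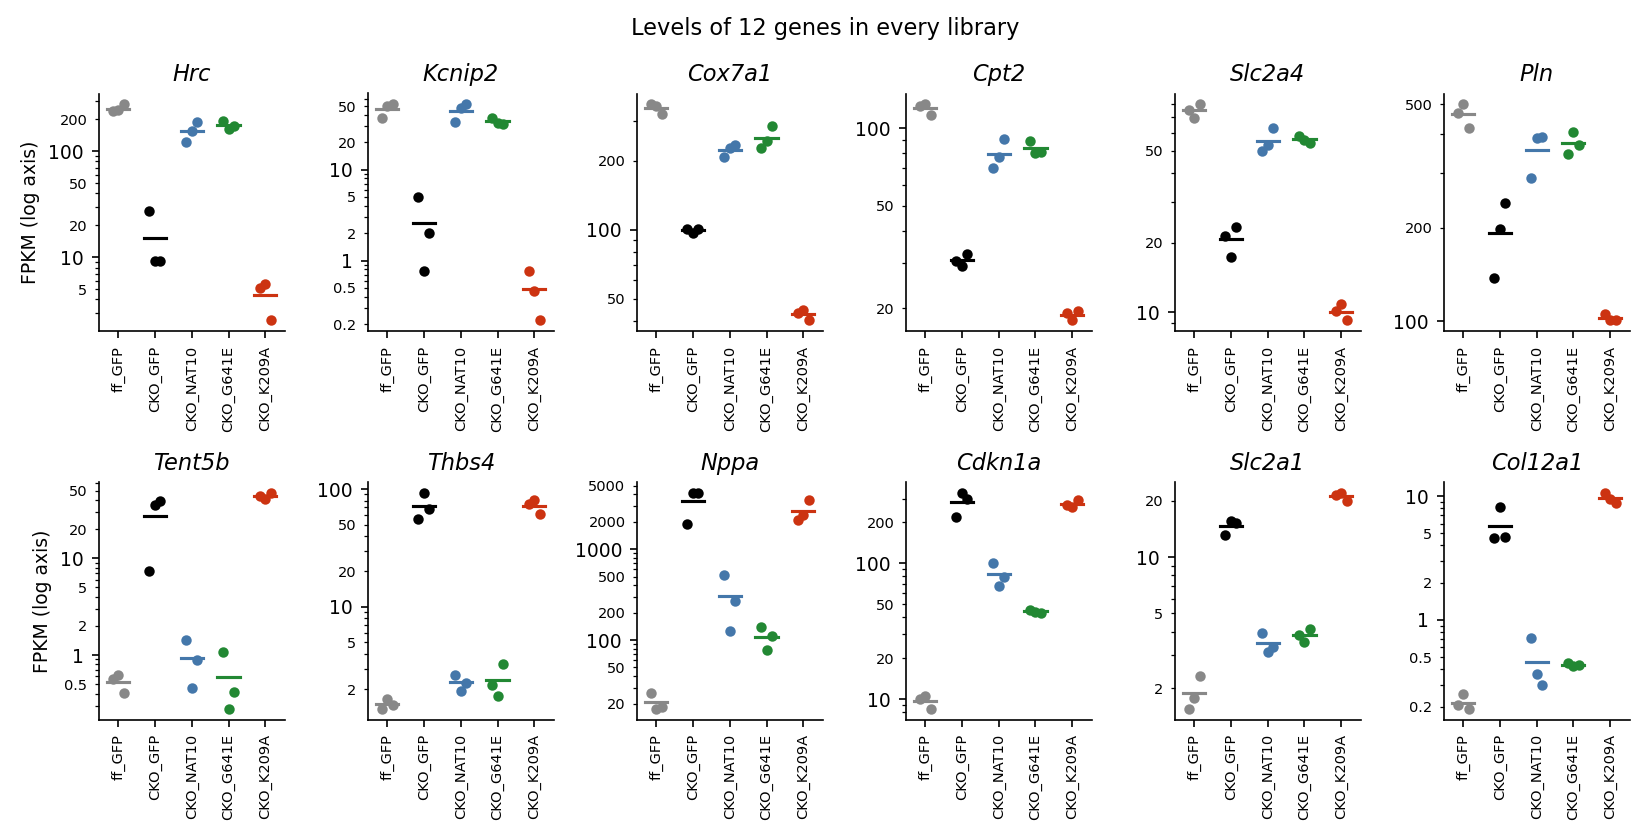
FPKM of 12 genes in each library on log axes, with points for libraries and a bar for the mean of each group of 3. In the upper row (Hrc, Kcnip2, Cox7a1, Cpt2, Slc2a4, Pln) the CKO_K209A points lie lowest of the 5 groups or among the lowest, and in the lower row (Tent5b, Thbs4, Nppa, Cdkn1a, Slc2a1, Col12a1) CKO_K209A and CKO_GFP both lie above CKO_G641E and CKO_NAT10.

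Grouped by function, the lists with the largest share of members lower in CKO_K209A were those of mitochondrial metabolism, and those of more than 4 members with the largest share higher were ribosomal proteins, matrix and ribosome assembly. Lists and members were chosen with earlier results of these data known, so this order is not an unbiased survey of functions. The medians below are medians of log2 differences over the tested members of a list, beside a median of -0.00 over all 15321 genes, and each count reads against 19.6% of genes called higher and 21.2% called lower. Calls were more frequent at high levels. Among the 3830 tested genes of highest level 28.6% were called higher and 31.0% lower, and the lists were not compared with genes of like level.

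**Figure D3:**
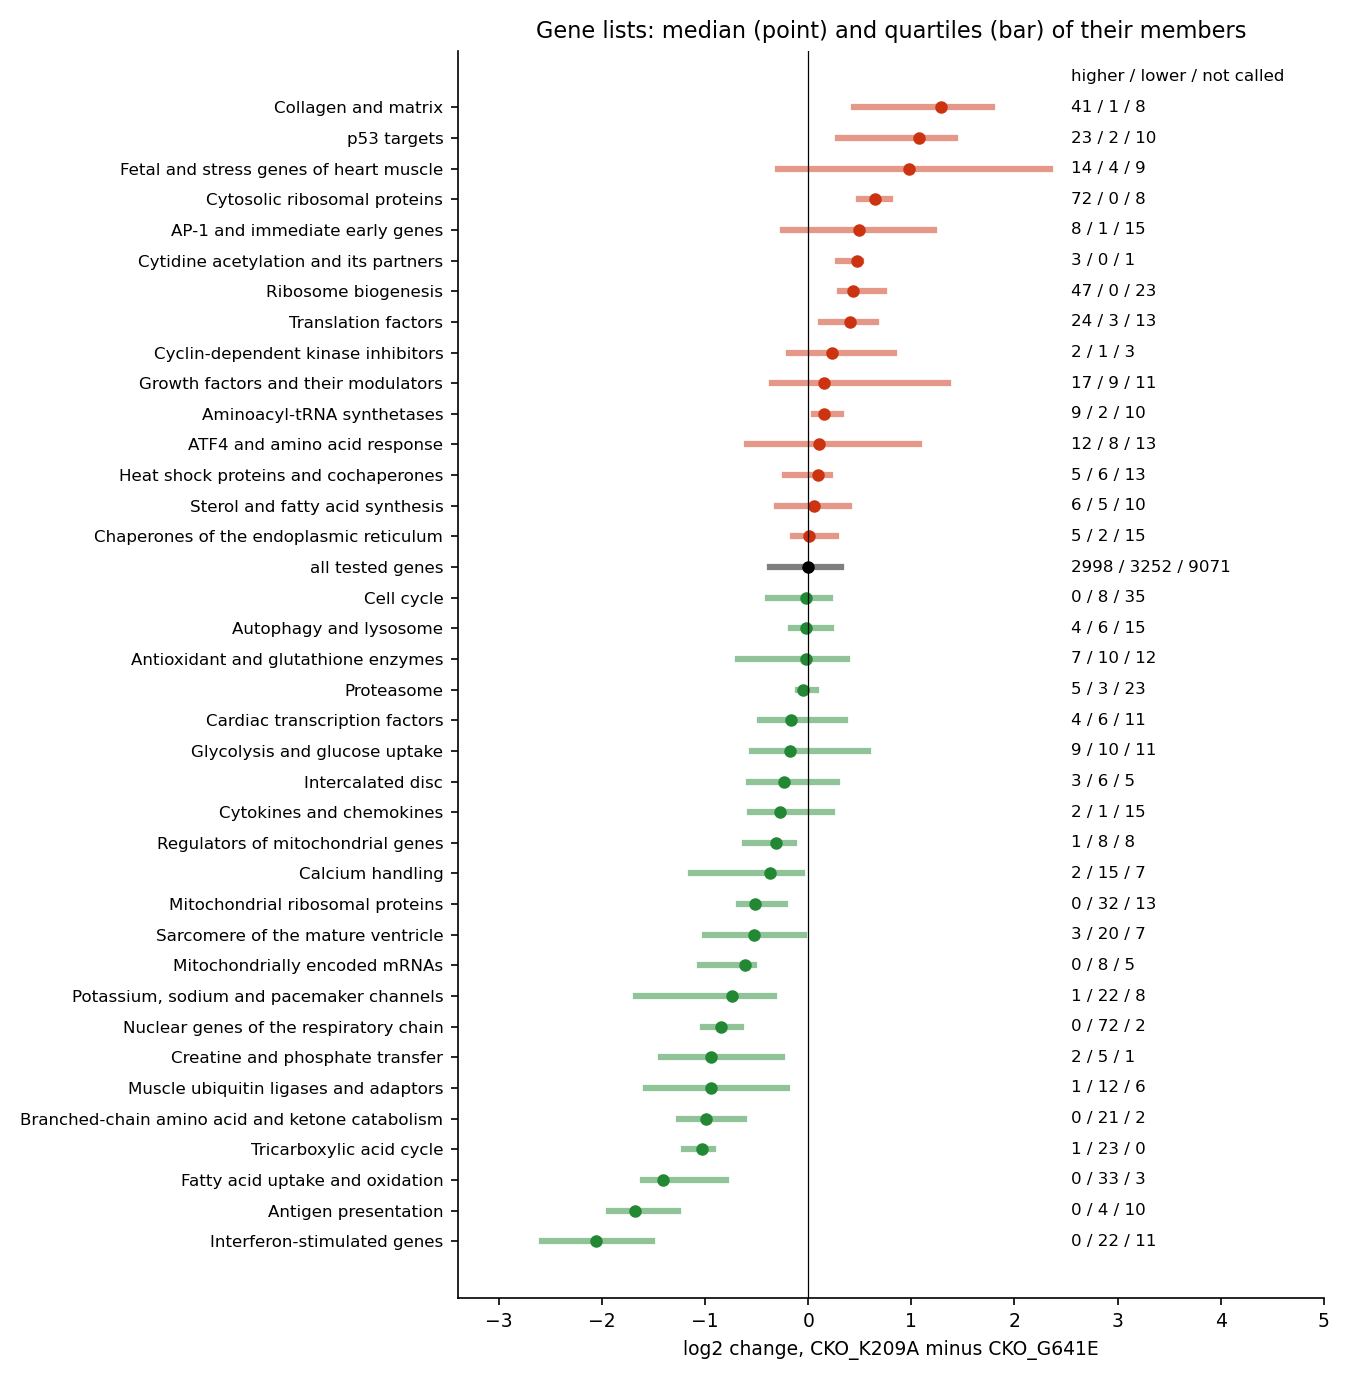
Median (point) and quartiles (bar) of the log2 difference, K209A minus G641E, over the tested members of each gene list, with the numbers called higher, lower and not called at the right. The lists run from collagen and matrix at the top, with a median of 1.29, through all tested genes near 0, to interferon-stimulated genes at the bottom, with a median of -2.06.

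Genes of the ribosome and of its assembly, the process NAT10 takes part in, were higher in CKO_K209A. Of 80 cytosolic ribosomal protein genes 72 were higher and 0 lower, with a median of 0.65. Rps18 was at 151, 152 and 182 FPKM in CKO_K209A and 71.7, 72.8 and 75.2 FPKM in CKO_G641E, and the groups did not overlap (1.13 ± 0.12 SE, adjusted p = 6.72e-06). Rpl12 was at 86.3, 79.9 and 96.2 FPKM against 39.6, 37.4 and 41.5 FPKM (1.13 ± 0.11 SE, adjusted p = 3.26e-06). The member with the highest level that was not called was Rps9, at 111, 124 and 145 FPKM against 118, 111 and 130 FPKM (0.07). Ribosomal protein genes have many near-identical pseudogenes, to which reads can be assigned, so the value of a single member is uncertain.

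Ribosome assembly followed the same direction, with 47 of 70 genes higher, 0 lower and a median of 0.43. Nop58, a core protein of box C/D nucleolar particles, was at 7.79, 6.63 and 7.32 FPKM against 2.49, 3.06 and 2.73 FPKM (1.25 ± 0.10 SE, adjusted p = 5.41e-07). Gnl3, the nucleolar GTPase nucleostemin (1.22), Wdr43, a subunit of the small-subunit processome (1.24), Ncl, nucleolin (0.91), and Fbl, the methyltransferase fibrillarin (0.52), were higher as well. Of the 4 genes listed with cytidine acetylation, Thumpd1, the adaptor that brings NAT10 to transfer RNAs, was higher (0.55, adjusted p = 7.03e-04), as were Thumpd3 (0.44) and Nat10, and Thumpd2 was not called (-0.16). Among 40 translation factors 24 were higher, led by Eif5 (1.26) and Eif1a (1.37), and 3 were lower, among them Eef1a2, the elongation factor form of adult muscle (-1.33), a count that was 1 without CKO_G641E replicate 2 or CKO_K209A replicate 2 or 3. Eef2 was not called (0.13). Of 21 aminoacyl-tRNA synthetases 9 were higher, such as Lars (0.60) and Rars (0.61), and 2 lower, Fars2, which serves mitochondria (-0.96), and Mars (-0.38).

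Stress genes of heart muscle were higher in CKO_K209A for the most part, but not as a block. Of 27 tested fetal and stress genes 14 were higher and 4 lower, with a median of 0.98. Nppb, which encodes brain natriuretic peptide, was at 1779, 1700.4 and 1597 FPKM in CKO_K209A and 786, 485 and 492 FPKM in CKO_G641E, a log2 difference of 1.56 ± 0.23 (SE, adjusted p = 1.52e-04). Myh7, the myosin of the fetal ventricle, was at 48.6, 59.1 and 96.2 FPKM against 29.5, 26.1 and 28.9 FPKM (1.197, adjusted p = 0.0290). The CKO_K209A libraries spread widely for Myh7, and its call was lost when any CKO_G641E library, or CKO_K209A replicate 2 or 3, was left out. Ctgf, a matricellular growth factor, was at 425, 360.2 and 382 FPKM against 258, 60.5 and 80.5 FPKM (1.84, adjusted p = 0.00490). The 4 lower members were the actins Acta1 (-1.19) and Acta2 (-1.63), the slow skeletal troponin T Tnnt1 (-0.80) and Ankrd23 (-0.82). Acta1, skeletal alpha-actin, was at 95.8, 94.1 and 94.7 FPKM against 299, 141 and 242 FPKM, and its call was lost without any one of CKO_G641E replicates 1 and 3 or the 3 CKO_K209A libraries. It was also lost after quantile normalization, with total reads as the scale, with the filter above 0 and with the replicate block. The count of lower members was 2 without CKO_G641E replicate 1 or CKO_K209A replicate 2.

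Targets of p53 were higher in CKO_K209A while the p53 transcript was not called. Of 35 tested targets 23 were higher and 2 lower, with a median of 1.08. Cdkn1a, the cyclin-dependent kinase inhibitor p21, was at 268, 261 and 294 FPKM in CKO_K209A and 45.3, 44.0 and 43.2 FPKM in CKO_G641E, with no overlap (2.62 ± 0.15 SE, adjusted p = 6.89e-08). Mdm2, the ubiquitin ligase of p53, was at 38.8, 34.5 and 41.9 FPKM against 16.6, 17.2 and 16.2 FPKM (1.17 ± 0.09 SE, adjusted p = 6.17e-07). Pmaip1, the apoptosis protein Noxa (2.30), Eda2r, a death receptor family member (1.94), and Zmat3, an RNA-binding protein (1.61), were higher too. The 2 lower members were Tigar, a sugar bisphosphatase (-0.90), and the cyclin Ccnd1 (-1.27). Trp53 itself was at 10.02, 10.3 and 13.3 FPKM against 11.3, 9.71 and 11.8 FPKM (0.02, adjusted p = 0.941). Gdf15, a stress cytokine, was at 29.2, 29.4 and 43.0 FPKM against 9.92, 6.29 and 4.24 FPKM (2.28 ± 0.55 SE, adjusted p = 0.00465).

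Genes of the amino acid response under the transcription factor ATF4 split between directions, with 12 of 33 higher and 8 lower and a median of 0.10. The lower count was 5 without CKO_G641E replicate 1, without CKO_G641E replicate 2 or without CKO_K209A replicate 2. Ppp1r15a, the phosphatase subunit GADD34 (1.75), and Slc3a2, a subunit of amino acid exchangers (1.11), were higher. Gpt2, a mitochondrial alanine transaminase (-2.13), and Vldlr, a lipoprotein receptor (-1.03), were lower. Of 30 members with a RefSeq promoter window (GRCm38.p6, 250 bases before to 50 after the gene start), 8 (26.7%) held the ATF4 composite element TGATGNAAN on either strand, against 2.68% of 10287 tested genes. That share describes the members of the list and not the contrast. Among genes called lower in CKO_K209A the element was in 3.54% of windows, and among those called higher in 2.19%. The stretches of the 4 called members with the largest difference that hold it are shown, 5′ to 3′ on the strand of the gene, with the match in capitals, since they stand upstream of genes that went in different directions.
Chac1 (chr2:119351022-119351081, plus strand): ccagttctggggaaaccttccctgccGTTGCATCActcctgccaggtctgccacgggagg
Atf3 (chr1:191183411-191183470, minus strand): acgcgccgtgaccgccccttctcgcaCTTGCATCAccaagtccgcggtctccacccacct
Asns (chr6:7693199-7693258, minus strand): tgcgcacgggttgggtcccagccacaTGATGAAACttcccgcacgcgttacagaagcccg
Nupr1 (chr7:126625548-126625607, minus strand): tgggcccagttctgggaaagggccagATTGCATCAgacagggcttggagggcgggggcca
In 3 of the 4 the match is on the opposite strand, where it reads as the reverse complement. Chac1, a glutathione-degrading enzyme, was at 0.571, 0.529 and 0.179 FPKM in CKO_K209A and 2.51, 2.11 and 1.90 FPKM in CKO_G641E (-1.55, adjusted p = 0.0245). Asns, asparagine synthetase, was at 2.25, 2.06 and 2.08 FPKM against 5.13, 6.06 and 4.89 FPKM (-1.15, adjusted p = 0.0192). Both were lower in every CKO_K209A library than in any CKO_G641E library. Nupr1, a stress-induced nuclear protein, went the other way, at 3.002, 4.08 and 3.74 FPKM against 1.29, 1.85 and 1.26 FPKM (1.07, adjusted p = 3.73e-04).

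Atf3, a stress-induced transcription factor of the ATF and AP-1 families, was at 7.01, 5.11 and 7.14 FPKM in CKO_K209A and 20.46, 13.2 and 15.9 FPKM in CKO_G641E (-1.29, adjusted p = 0.0159), a call lost without CKO_G641E replicate 1 or CKO_K209A replicate 2. It was the 1 lower gene of the AP-1 and immediate early list, in which 8 of 24 were higher with a median of 0.50. Ier3 (1.82), Maff (2.02), Btg2 (1.44) and Klf6 (0.80) were among the higher members, and Klf2 was not called (-0.05). Myc was at 14.5, 9.85 and 12.7 FPKM against 6.07, 3.89 and 3.10 FPKM (1.43 ± 0.33 SE, adjusted p = 0.00331).

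Genes for burning fatty acids were lower in CKO_K209A almost throughout. Of 36 tested genes of fatty acid uptake and oxidation 33 were lower and none was higher, with a median of -1.41. Cpt2, which releases fatty acids from carnitine inside the mitochondrion, was at 19.1, 17.9 and 19.5 FPKM in CKO_K209A and 89.3, 79.8 and 81.0 FPKM in CKO_G641E (-2.12 ± 0.09 SE, adjusted p = 8.69e-09). Cpt1b, the muscle form of the enzyme that loads fatty acids onto carnitine, was at 0.673, 1.65 and 0.992 FPKM against 3.05, 2.22 and 2.67 FPKM (-1.01 ± 0.21 SE, adjusted p = 0.00170). Hadh, a dehydrogenase of beta-oxidation (-2.09), and Crat, carnitine acetyltransferase (-1.58), were lower as well. Dgat2, which makes triglyceride, was at 5.68, 6.86 and 6.15 FPKM against 77.1, 65.4 and 71.2 FPKM, the list's largest difference of those named (-3.41 ± 0.15 SE, adjusted p = 1.19e-08). The 3 genes not called were Cd36, the fatty acid receptor of the cell surface (-0.10), Lpl, lipoprotein lipase (0.37), and Cpt1a, the liver form of Cpt1b (-0.13).

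The tricarboxylic acid cycle and the respiratory chain followed. Of 24 genes of the cycle and its feeders 23 were lower (median -1.03), for example Cs, citrate synthase, at 109.9, 111 and 112 FPKM in CKO_K209A and 293, 262 and 263 FPKM in CKO_G641E (-1.29 ± 0.08 SE, adjusted p = 9.80e-08). The dehydrogenase subunits Ogdh (-1.64), Dlat (-1.22) and Sdhc (-0.9995) were among them. The 1 higher gene was Pcx, pyruvate carboxylase, at 7.56, 6.57 and 11.7 FPKM against 2.73, 2.36 and 1.87 FPKM (1.66, adjusted p = 3.59e-05). Nuclear genes for the respiratory chain numbered 74, of which 72 were lower (median -0.85) and none higher. Cox7a1, the muscle isoform of a cytochrome c oxidase subunit, was at 43.3, 44.6 and 40.2 FPKM against 228, 245 and 285 FPKM (-2.546 ± 0.09 SE, adjusted p = 1.02e-09). Its ubiquitous counterpart Cox7a2 was not called (-0.23), nor was Ndufa12 (-0.63). Subunits of complex I such as Ndufs8 (-1.21) and Ndufb10 (-1.38) and of ATP synthase such as Atp5a1 (-1.13) were lower by less than Cox7a1. The element TNAAGGTCA, bound by oestrogen-related receptors, was in 3 of 165 promoter windows of the mitochondrial lists (1.82%) and in 0.904% of all 10287.

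Other mitochondrial genes moved less. Of 45 mitochondrial ribosomal proteins 32 were lower (median -0.51), led by Mrpl34 (-1.80). Of 17 regulators 8 were lower, among them Perm1 (-1.43), the oestrogen-related receptor Esrrg (-0.96) and the mitochondrial RNA polymerase Polrmt (-0.61), and 1 was higher, Klf15 (1.12). The 8 became 5 without CKO_K209A replicate 2. Ppargc1a, the coactivator PGC-1alpha, was at 10.8, 10.6 and 9.48 FPKM against 12.2, 13.0 and 10.9 FPKM and was not called (-0.22, adjusted p = 0.479). Of 13 mRNAs encoded by mitochondrial DNA 8 were lower with a median of -0.61. mt-Nd2 was at 9272, 7809 and 6348 FPKM in CKO_K209A and 12704, 12996 and 11357 FPKM in CKO_G641E (-0.68, adjusted p = 0.0115). This call was lost after quantile normalization, with the filter above 0 and without CKO_K209A replicate 3. mt-Cytb was not called (-0.35). The count of 8 was 4 without CKO_G641E replicate 2 or CKO_K209A replicate 3, 3 without CKO_K209A replicate 2, and 2 after quantile normalization, where the median was -0.07. The lower share of mitochondrial reads in CKO_K209A is counted from these same genes among others, so it is not a separate observation.

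Genes of glucose use went both ways, and the 2 glucose transporters of the heart did so most plainly. Slc2a4, the insulin-responsive transporter GLUT4, was at 10.1, 10.8 and 9.199 FPKM in CKO_K209A and 58.4, 55.7 and 54.4 FPKM in CKO_G641E (-2.43 ± 0.11 SE, adjusted p = 1.62e-08). Slc2a1, the transporter GLUT1 of fetal and stressed hearts, was at 21.4, 22.0 and 19.9 FPKM against 3.82, 3.54 and 4.12 FPKM (2.32 ± 0.12 SE, adjusted p = 3.90e-08). The groups did not overlap in either gene, and they moved in opposite directions. Over the glycolysis and glucose uptake list 9 of 30 genes were higher and 10 lower (median -0.17). Pfkm, the muscle phosphofructokinase (-2.37), and Pdk2, a brake on pyruvate dehydrogenase (-1.60), were lower. Aldoa, an aldolase, was not called (-0.06), and after quantile normalization it was called higher. Of 23 genes for breaking down branched-chain amino acids and ketones 21 were lower (median -0.99), such as Ivd (-1.73) and Acat1 (-1.59), and Acadsb (0.31) and Bdh1 (0.48) were not called. The creatine kinases of muscle were lower, Ckm at 111, 111 and 113 FPKM against 471, 383 and 411 FPKM (-1.91, adjusted p = 1.14e-06) and the mitochondrial Ckmt2 at -1.72 on the log2 scale. In the list of 8 genes of phosphate transfer 5 were lower and 2 higher, Slc6a8 (0.28) and Ak4 (0.40).

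Much of the mature contractile apparatus was lower in CKO_K209A. Of 30 sarcomere genes 20 were lower and 3 higher (median -0.53), against 13 and 6 after quantile normalization. Tcap, the titin cap of the Z-disc, was at 32.0, 44.3 and 19.2 FPKM in CKO_K209A and 325, 209.4 and 400 FPKM in CKO_G641E (-3.30 ± 0.29 SE, adjusted p = 1.64e-06). Myh6, the adult myosin of the mouse ventricle, was at 2142, 2387 and 1901 FPKM against 5237, 4421 and 5017 FPKM (-1.19 ± 0.14 SE, adjusted p = 2.39e-05), a call lost after quantile normalization. Tnni3, cardiac troponin I (-1.11), Mybpc3, cardiac myosin-binding protein C (-1.61), and Myl2, the ventricular light chain (-1.05), were lower as well. The 3 higher genes were Csrp3, the muscle LIM protein (1.09), Smpx (0.88) and the intermediate filament Des (0.78).

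Calcium handling genes were lower in 15 of 24 cases (median -0.37). Atp2a2, the calcium pump SERCA2, was at 708, 731 and 597 FPKM in CKO_K209A and 1771, 1656 and 1559.5 FPKM in CKO_G641E (-1.29 ± 0.11 SE, adjusted p = 1.41e-06). Pln, phospholamban, which restrains that pump, was at 106, 101 and 101 FPKM against 346, 407 and 368 FPKM (-1.86 ± 0.17 SE, adjusted p = 2.58e-06), so the pump and its inhibitor were both lower. Cmya5, a large protein of the junction between membrane systems (-2.547), and Tmem38a, a cation channel of the reticulum (-1.14), followed. The higher members were Casq1, the calsequestrin of skeletal muscle (1.48), and Camk2d (0.22). Ryr2, the calcium release channel, was not called, at 35.1, 35.7 and 39.8 FPKM against 42.0, 38.9 and 36.1 FPKM (-0.08, adjusted p = 0.758).

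Of 31 potassium, sodium and pacemaker channel genes 22 were lower (median -0.74). Hcn2, a pacemaker channel, was at 2.57, 2.86 and 3.62 FPKM in CKO_K209A and 23.0, 26.1 and 20.7 FPKM in CKO_G641E (-2.76 ± 0.15 SE, adjusted p = 3.91e-08). Scn4a, the sodium channel of skeletal muscle (-1.79), was lower too. At the intercalated disc Gja1, the gap junction protein connexin 43, was at 17.6, 18.3 and 21.2 FPKM against 52.4, 49.4 and 56.4 FPKM (-1.45 ± 0.17 SE, adjusted p = 1.89e-05). The desmosomal cadherin Dsc2 (-1.34) and the catenin Ctnna3 (-1.61) were lower, in a list with 6 of 14 lower and 3 higher, the 3 not being called without CKO_G641E replicate 2 or without CKO_K209A replicate 1. Cardiac transcription factors went both ways, with Tead1 (1.05) and Tbx20 (0.94) higher, Mef2c (-0.51) and Irx4 (-1.14) lower and Nkx2-5 not called (-0.24). Of 19 muscle ubiquitin ligases and adaptors 12 were lower (median -0.95), with Asb14 at -3.66, while Trim63, the ligase MuRF1, was not called (0.07).

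Markers of heart muscle cells were mostly lower in CKO_K209A. Several of them, such as Myh6, Tnni3, Myl2, Pln and Ryr2, are members of the lists above, so this is not a separate observation. The summed level of 9 cardiomyocyte markers was 7196 to 9630 FPKM in CKO_K209A and 17975 to 20514 FPKM in CKO_G641E. Of the 9 markers 7 were lower and none was higher (median -1.05), while Ttn, titin (-0.08), and Ryr2 were not called. Actn2, the Z-disc actinin, was at 447, 465 and 390.2 FPKM against 805, 707 and 830.2 FPKM (-0.85, adjusted p = 1.17e-05). In tissue RNA fewer cells of a type and less RNA per cell cannot be told apart, and the part of the cardiomyocyte share in the results above was not tested.

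Collagen and matrix genes were higher in CKO_K209A. Of 50 tested genes 41 were higher and 1 was lower, Lum, lumican (-0.71), with a median of 1.29. Col12a1, a collagen that sits on the surface of fibrils, was at 10.6, 9.41 and 8.81 FPKM in CKO_K209A and 0.449, 0.426 and 0.433 FPKM in CKO_G641E (3.43 ± 0.19 SE, adjusted p = 6.47e-08). Postn, periostin, a protein of activated fibroblasts, was at 316, 299.6 and 230 FPKM against 47.3, 58.1 and 59.6 FPKM (2.34 ± 0.19 SE, adjusted p = 9.24e-07). The main fibrillar collagen gene Col1a1 was at 411, 436 and 429 FPKM against 218, 199 and 220.1 FPKM (1.002 ± 0.13 SE, adjusted p = 5.48e-05). Loxl2, a collagen cross-linking enzyme (2.16), and Col1a2 (1.204) rose with it, and Serpinh1, the collagen chaperone, was not called (0.09). The fibroblast markers split, with 6 of 13 higher, such as Mfap5 (1.73) and Tcf21 (1.36), and 3 lower, Pi16 (-0.64), Gsn (-0.48) and Lum, and Dcn not called (0.15). The 3 became 1 without CKO_G641E replicate 2 or CKO_K209A replicate 3. Their summed level was 1079 to 1204 FPKM in CKO_K209A and 794 to 849 FPKM in CKO_G641E. Col1a1 and Lum are among these markers, so the sum is not separate from the matrix result. The part of fibroblast share in that result was not tested.

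Growth factors and their modulators went both ways, 17 of 37 higher and 9 lower (median 0.15). Fstl3, an inhibitor of activin, was at 13.1, 14.9 and 20.8 FPKM in CKO_K209A and 1.74, 1.56 and 1.79 FPKM in CKO_G641E (2.91 ± 0.26 SE, adjusted p = 1.77e-06). Gdf6, a bone morphogenetic protein family member (2.51), was higher, and Fgf1 (-2.26) and Vegfb (-0.97) were lower. Vegfa was not called (0.15).

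Interferon-stimulated genes were lower in CKO_K209A, and they varied widely among the CKO_G641E libraries. Of 33 tested genes 22 were lower and none was higher, with a median of -2.06. The list's median level, in log2 units from the mean of the 15 libraries, was 0.81, 1.91 and 0.12 in the CKO_G641E libraries and -1.19, -1.15 and -0.97 in the CKO_K209A libraries. The groups did not overlap, and CKO_G641E replicate 2 was highest. Without that library 9 genes were called and without CKO_K209A replicate 1 there were 14. Rsad2, the antiviral enzyme viperin, was at 1.16, 1.41 and 1.10 FPKM in CKO_K209A and 16.96, 28.5 and 11.6 FPKM in CKO_G641E (-3.41 ± 0.68 SE, adjusted p = 0.00135). Usp18, which removes ISG15 from proteins, was at 0.359, 0.310 and 0.442 FPKM against 6.09, 12.6 and 2.45 FPKM (-2.87 ± 0.70 SE, adjusted p = 0.00529). Ifi27 (-1.46) and Cmpk2 (-2.28) were lower, and Gbp2, a guanylate-binding protein, differed by -2.65 and was not called (adjusted p = 0.0830). Among the reference libraries the list's median was 1.57 in CKO_GFP replicate 1, 1.52 in CKO_NAT10 replicate 2 and from -0.74 to -0.10 in the other 7. One library in each of 2 reference groups thus lay between the 2 highest CKO_G641E libraries.

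The core of the interferon-stimulated response element, GAAANNGAA on either strand, was in 15 of 23 promoter windows of this list (65.2%) and in 8.57% of 10287. That share describes the members of the list and not the contrast. Among genes called lower in CKO_K209A the core was in 8.49% of windows, and among those called higher in 7.62%. The stretches of the 4 called members with the largest difference that hold it are shown, with matches in capitals, 5′ to 3′ on the strand of the gene and from the same RefSeq windows.
Ifit1 (chr19:34640754-34640813, plus strand): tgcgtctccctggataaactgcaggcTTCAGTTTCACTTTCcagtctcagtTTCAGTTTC
Rsad2 (chr12:26456538-26456597, minus strand): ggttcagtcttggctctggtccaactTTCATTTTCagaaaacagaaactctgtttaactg
Ifit3 (chr19:34583348-34583407, plus strand): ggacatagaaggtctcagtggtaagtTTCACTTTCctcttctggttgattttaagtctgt
Isg15 (chr4:156200863-156200922, minus strand): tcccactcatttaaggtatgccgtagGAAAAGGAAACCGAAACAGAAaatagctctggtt
In Ifit1 and Isg15 neighbouring matches overlap. The windows were searched for each motif separately, and overlaps between different motifs were not counted. Ifit1, which binds viral RNA, was at 0.377, 0.535 and 0.530 FPKM in CKO_K209A and 9.41, 27.7 and 3.98 FPKM in CKO_G641E (-3.46, adjusted p = 0.00971). Isg15, a ubiquitin-like modifier, was at 0.795, 1.80 and 2.72 FPKM against 14.8, 27.7 and 10.7 FPKM (-2.99, adjusted p = 0.00814). In both genes every CKO_G641E library lay above every CKO_K209A library.

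Antigen presentation genes leaned the same way with less certainty. Of 14 tested genes 4 were lower (median -1.68), namely H2-D1, H2-K1, B2m and Tapbp. H2-K1, a class I heavy chain, was at 21.8, 22.8 and 25.01 FPKM in CKO_K209A and 135, 237 and 35.9 FPKM in CKO_G641E (-2.16, adjusted p = 0.0215). H2-D1 was at 24.97, 27.3 and 28.4 FPKM against 126, 192 and 53.9 FPKM (-2.01, adjusted p = 0.00482). B2m, the shared light chain, differed by -1.83 (adjusted p = 0.0387), a call lost in 8 of 17 alternative settings, and that of H2-K1 was lost in 4. Reads can be split among class I genes, which are close copies, and the value of each is uncertain. The count of 4 was 1 without CKO_G641E replicate 2 or CKO_K209A replicate 1, 2 without CKO_G641E replicate 1 or CKO_K209A replicate 2, 11 without CKO_GFP replicate 1, 7 without CKO_NAT10 replicate 2 and 10 in a fit of the 6 libraries alone.

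Several groups of genes moved little or in both directions. None of 43 cell cycle genes was higher and 8 were lower (median -0.02), among them Mcm2 (-1.52), E2f1 (-1.31) and Ccne1 (-0.95). The count was 4 when CKO_K209A replicate 3 or any CKO_G641E library was left out. Ccnd2 was not called (-0.02). Of 6 cyclin-dependent kinase inhibitors, Cdkn1a and Cdkn2b (1.03) were higher and Cdkn2d (-0.33) was lower, the last a call lost in 11 of 17 alternative settings. Proteasome genes differed by small amounts, 5 of 31 higher and 3 lower, with Psmd14 at 0.42 and Psmb1 at -0.41, and the 5 became 1 without CKO_G641E replicate 1 and 3 without CKO_G641E replicate 3 or CKO_K209A replicate 1 or 2. Of 22 chaperones and sensors of the endoplasmic reticulum 5 were higher, such as P4hb (0.95), and 2 lower, such as Herpud1 (-0.81), while Hspa5, the main chaperone, was not called (-0.09). Heat shock proteins divided into higher Hspb1 (1.58) and Hsp90aa1 (1.11) and lower Hspb6 (-1.45) and Hspb3 (-1.99). In the autophagy and lysosome list 4 of 25 were higher and 6 lower, among the latter Map1lc3a (-1.06). Of the antioxidant list 7 of 29 were higher, a count of 4 without CKO_G641E replicate 3, and 10 lower, led by Gsta4 (-2.38) and the mitochondrial superoxide dismutase Sod2 (-1.16). In sterol and fatty acid synthesis 6 of 21 were higher, such as Lss (0.90), and 5 lower, such as Acacb (-1.52), and the 6 became 3 without CKO_G641E replicate 1 or CKO_K209A replicate 2. Of 18 cytokines and chemokines 3 were called, Ccl9 (0.97) and Il34 (0.72) higher and Il15 (-1.36) lower, and the call of Il34 was lost in 7 of 17 alternative settings.

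Markers of the other cells of the heart went in different directions. Endothelial markers summed to 619 to 670 FPKM in CKO_K209A and 682 to 750 FPKM in CKO_G641E, with 2 of 15 higher, Vwf (1.16) and Flt1 (0.49), and 6 lower, such as Kdr (-0.77). Markers of smooth muscle and pericytes summed to 415 to 684 FPKM against 838 to 912 FPKM, with Acta2 as the largest part in CKO_G641E. Of these 12 genes 3 were higher, such as Cnn1 (2.82), and 3 lower, among them Acta2, with a median of 0.21. Macrophage markers overlapped, at 164 to 195 FPKM against 137 to 275 FPKM, and of 18 there were 3 higher, among them the resident-cell markers Lyve1 (1.69) and Cd163 (1.11), and 2 lower, Cx3cr1 (-1.34) and Csf1r (-0.58). The calls of Cd163, Cx3cr1 and Csf1r were lost without 1 or another library. Red blood cell markers overlapped, at 373 to 1183 FPKM against 615 to 973 FPKM, and the beta-globin gene Hbb-bs was not called (0.07). Epicardial markers were low, at 11.9 to 20.7 FPKM against 3.71 to 3.995 FPKM, with Krt19 (2.92) and Wt1 (0.79) higher. Lymphocyte and neutrophil markers summed to at most 9.71 FPKM, with 1 of 4 called, and Schwann cell and neuron markers to at most 4.86 FPKM, with 1 of 3 called. Atrial markers summed to 2156 to 3506 FPKM against 94.2 to 190 FPKM, most of it Nppa. Of the 6 tested atrial markers Nppa and Dkk3 (1.79) were higher and Stard10 (-1.40) was lower. Myl7, the atrial light chain, was at 7.47, 7.23 and 0.597 FPKM in CKO_K209A and 0.854, 0.478 and 49.3 FPKM in CKO_G641E (0.01, adjusted p = 0.997), Myl4 was not called (-0.25) and Bmp10 was at 0 in the 6 libraries.

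**Figure D4:**
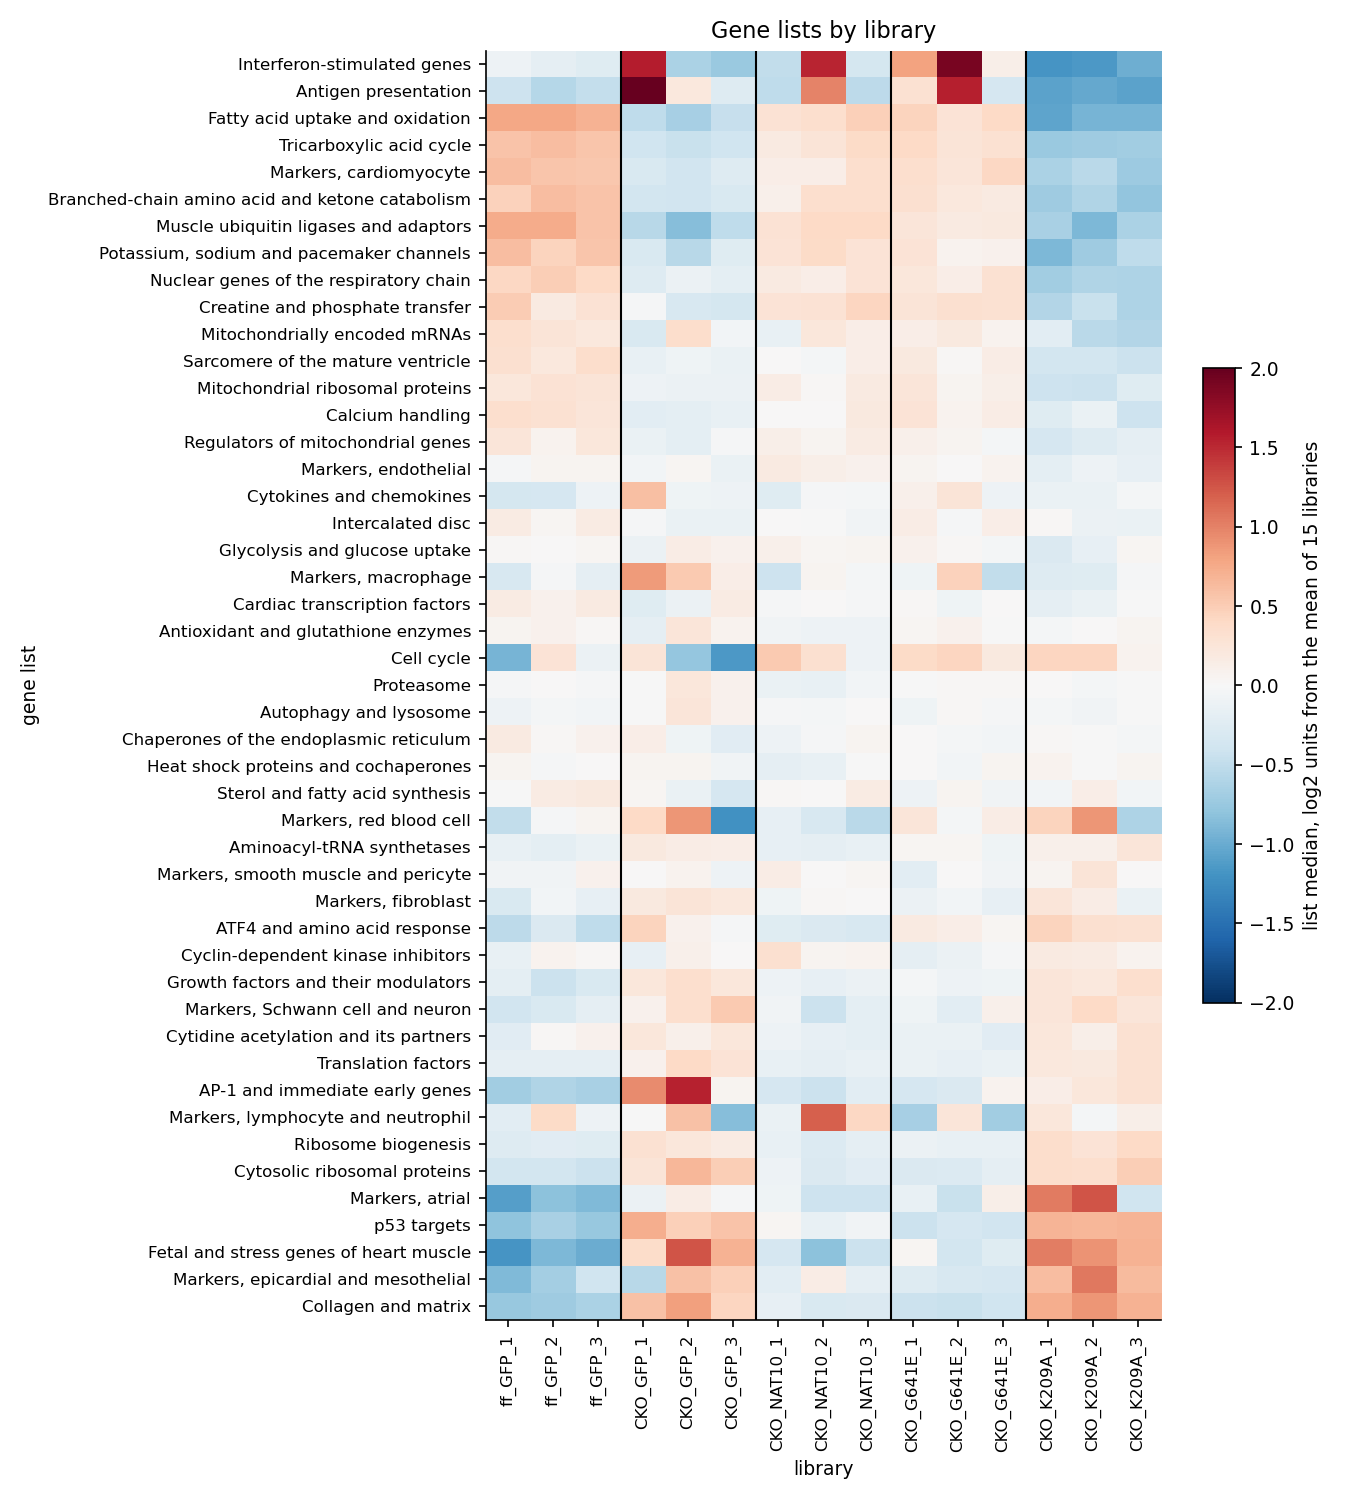
Median level of each gene list in each of the 15 libraries, in log2 units from the mean of the 15, with blue for lower and red for higher and black lines between the groups. The 3 CKO_K209A columns are blue for fatty acid, tricarboxylic acid cycle and cardiomyocyte lists and red for matrix, p53 and stress lists, and the interferon and antigen presentation rows are uneven within CKO_GFP, CKO_NAT10 and CKO_G641E.

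The difference between the substitutions was then set beside 2 other differences in the same fit, knockout with GFP minus knockout with unsubstituted NAT10 and knockout with GFP minus ff_GFP. Neither shares a library with the 6 analysed here, though they share CKO_GFP with each other. The first had 4776 genes called (31.2%) and the second 6212 (40.5%). Of the genes called between K209A and G641E, 3617 were called in the same direction between CKO_GFP and CKO_NAT10, 57.9% of the former and 75.7% of the latter, and 23 were called in opposite directions. Against CKO_GFP minus ff_GFP, 4328 went in the same direction, 69.2% of the former and 69.7% of the latter, and 41 in opposite directions. Across 15321 genes of the one fit the log2 differences correlated with Pearson's r = 0.74 and Spearman's rho = 0.71 in the first pairing, and r = 0.73 and rho = 0.72 in the second, a description across genes that are not independent replicates.

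Genes of each main group show the levels behind this. Cpt2 averaged 18.8 ± 0.802 FPKM in CKO_K209A (SD, n = 3), 83.4 ± 5.16 in CKO_G641E, 30.7 ± 1.67 in CKO_GFP, 79.3 ± 10.5 in CKO_NAT10 and 119 ± 6.05 in ff_GFP. Cdkn1a averaged 274 ± 17.1 FPKM in CKO_K209A, 44.1 ± 1.05 in CKO_G641E, 283 ± 56.5 in CKO_GFP, 83.0 ± 16.3 in CKO_NAT10 and 9.64 ± 1.05 in ff_GFP. In both genes the means of CKO_G641E and CKO_NAT10 lay between that of ff_GFP and those of CKO_GFP and CKO_K209A. They were close for Cpt2, whereas for Cdkn1a CKO_G641E averaged lower than CKO_NAT10. Cdkn1a did not differ in CKO_K209A and CKO_GFP beyond their spread, whereas Cpt2 was lower in every CKO_K209A library than in any CKO_GFP library. List medians of the differences had the same sign in some lists and not in others. For fatty acid genes the median was -1.41 between the substitutions, -0.91 for CKO_GFP minus CKO_NAT10 and -1.32 for CKO_GFP minus ff_GFP. For fetal and stress genes these medians were 0.98, 1.42 and 2.02, and for ribosomal proteins 0.65, 0.68 and 0.87. For interferon-stimulated genes they were -2.06, -0.05 and 0.30, and for antigen presentation genes -1.68, 0.72 and 1.39. In the gene by gene tests between these differences, described below, 0 of 33 interferon-stimulated genes were called in either comparison. Of 14 antigen presentation genes 2 were called lower in each.

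**Figure D5:**
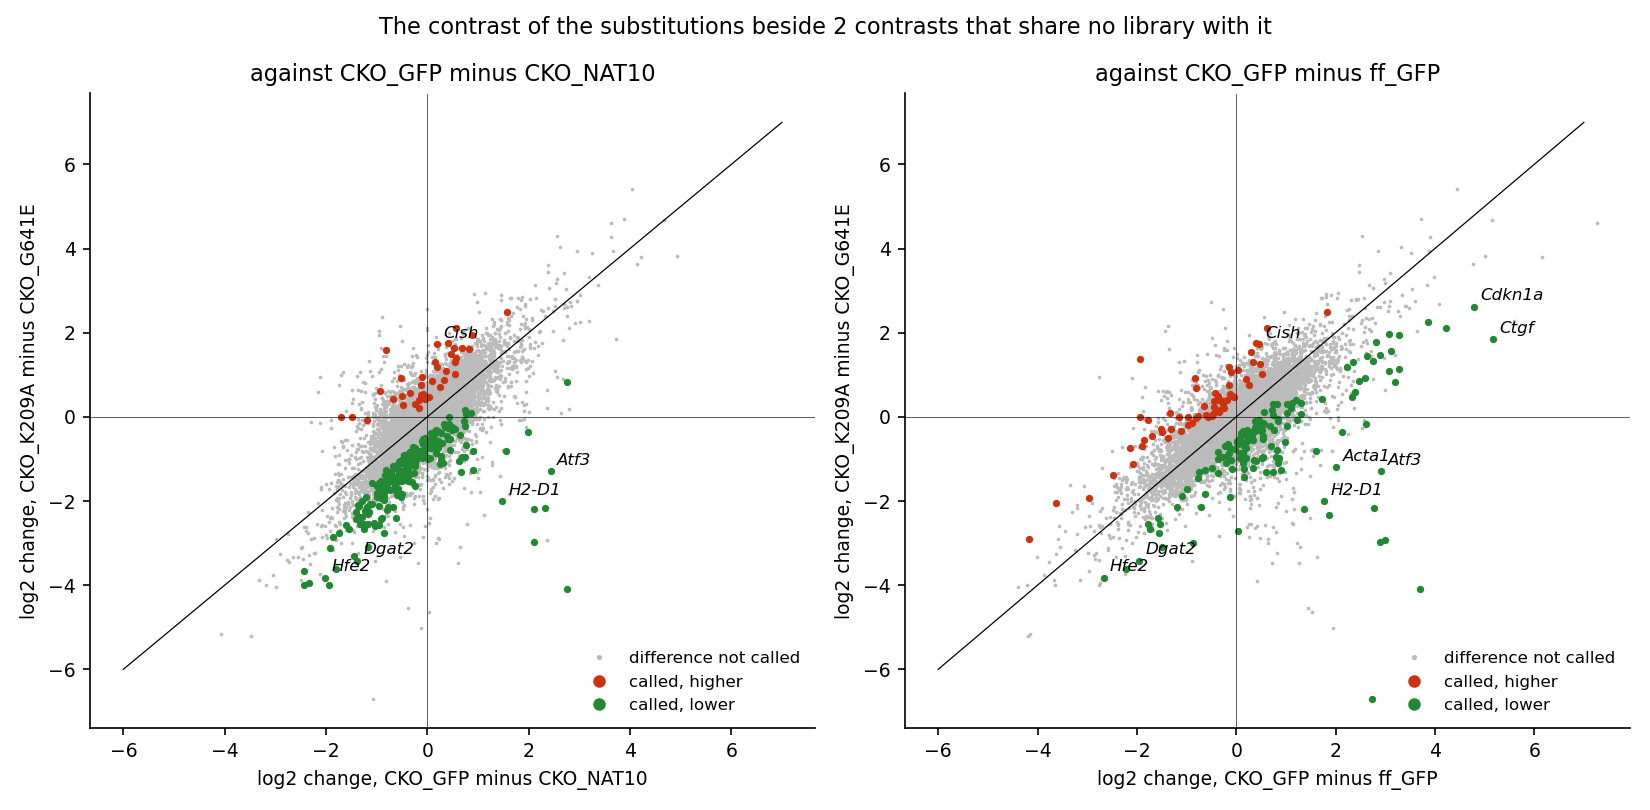
Log2 difference, K209A minus G641E, against CKO_GFP minus CKO_NAT10 (left) and against CKO_GFP minus ff_GFP (right) for 15321 genes, with the line of equal values. Coloured points are genes whose differences were themselves called different, 279 on the left and 203 on the right, and most points lie along the line.

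Whether the substitutions differed by more or less than the reference pairs was tested gene by gene as a difference of differences. Against CKO_GFP minus CKO_NAT10, 279 genes were called (1.82%), 241 of them lower, that is with a more negative value between K209A and G641E (1.57%), and 38 higher. Against CKO_GFP minus ff_GFP, 203 were called (1.32%). Leaving out 1 library moved the first count between 91, without CKO_G641E replicate 1, and 583, without CKO_GFP replicate 1, and the second between 47, without CKO_K209A replicate 1, and 388, without CKO_GFP replicate 1. The median SE of a gene was 0.21 here against 0.15 for the contrast of the substitutions itself. Against CKO_GFP minus CKO_NAT10, 23 of the 74 respiratory chain genes encoded in the nucleus were called lower (31.1%) and 8 of the 36 fatty acid genes. Against CKO_GFP minus ff_GFP, only 2 of the 74 and 1 of the 36 were called lower. The counts against CKO_GFP minus CKO_NAT10 rest on the scaling and on single libraries. With total reads as the scale the respiratory chain count was 5, after quantile normalization 9, and with 1 library left out it ran from 9 to 30, at 9 without CKO_G641E replicate 1 or 3, 10 without CKO_NAT10 replicate 1 or 2, 11 without CKO_K209A replicate 1 or 2 and 15 without CKO_GFP replicate 3. The fatty acid count ran from 2 without CKO_G641E replicate 1 to 11 without CKO_GFP replicate 1. Cox7a1 had a difference of differences of -1.38 ± 0.12 (SE, adjusted p = 2.37e-04), at 43.3, 44.6 and 40.2 FPKM in CKO_K209A and 101, 96.5 and 101 FPKM in CKO_GFP, beside 228, 245 and 285 FPKM in CKO_G641E and 207, 228 and 235 FPKM in CKO_NAT10. Slc2a4 followed this pattern (-1.03 ± 0.16 SE, adjusted p = 0.00872), and its level in CKO_GFP was 21.5, 17.4 and 23.3 FPKM. Dgat2 was at 30.6, 18.2 and 25.1 FPKM in CKO_GFP and 56.6, 63.1 and 73.6 FPKM in CKO_NAT10, with a difference of differences of -2.02 ± 0.22 (SE, adjusted p = 9.89e-04).

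In the other direction several stress genes differed less between the substitutions than between CKO_GFP and ff_GFP. Cdkn1a differed by 2.62 between the substitutions and by 4.79 between CKO_GFP and ff_GFP, a difference of -2.17 ± 0.21 (SE, adjusted p = 0.00228) that was called in all 22 alternative settings. The calls of Nppb (-1.56 ± 0.33 SE, adjusted p = 0.0431) and Ctgf (-3.33 ± 0.63 SE, adjusted p = 0.0290) were less firm. The first was lost in 14 of 22 alternative settings, among them any setting without a library other than CKO_GFP replicate 1 or 3, and the second without any ff_GFP library or without CKO_K209A replicate 1 or 2. Nppa, at 4.61 against 7.26, was not called (adjusted p = 0.0578). The reference level for the substitutions was also higher, since Cdkn1a in CKO_G641E was at 45.3, 44.0 and 43.2 FPKM and in ff_GFP at 9.97, 10.5 and 8.46 FPKM, with no overlap.

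A small set of genes went against the knockout or apart from it. Atf3 was lower in CKO_K209A than in CKO_G641E and higher in CKO_GFP than in CKO_NAT10 or ff_GFP. It was at 18.8, 32.3 and 7.30 FPKM in CKO_GFP, 2.005, 3.62 and 2.47 FPKM in CKO_NAT10 and 1.95, 1.70 and 1.62 FPKM in ff_GFP, beside the levels given above, with -3.73 ± 0.54 (SE, adjusted p = 0.00686) for the first difference of differences. H2-K1 went the same way, at 515, 135 and 90.5 FPKM in CKO_GFP with CKO_GFP replicate 1 highest, 25.4, 76.2 and 25.6 FPKM in CKO_NAT10 and 27.2, 26.1 and 26.2 FPKM in ff_GFP. Among the 41 genes called in opposite directions against CKO_GFP minus ff_GFP, 28 were lower in CKO_K209A, including H2-Q6 (-4.09), Acta1 and the kinase-like regulator Trib3 (-0.96), and 13 were higher, including the cyclin-like Ccnjl (0.92). Ccnjl was at 4.61, 4.71 and 4.14 FPKM in CKO_K209A and 2.93, 1.85 and 1.78 FPKM in CKO_G641E, and at 1.45, 1.93 and 1.47 FPKM in CKO_GFP, below 3.41, 3.14 and 3.14 FPKM in ff_GFP. Cish, an inhibitor of cytokine signalling, was higher in CKO_K209A, at 32.3, 31.7 and 33.5 FPKM against 7.43, 10.5 and 10.96 FPKM (1.72 ± 0.14 SE, adjusted p = 9.26e-07). It was at 17.4, 19.1 and 23.7 FPKM in CKO_GFP and 18.6, 16.3 and 17.4 FPKM in CKO_NAT10, and its difference of differences was 1.53 ± 0.20 (SE, adjusted p = 0.00376).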

How the data were processed

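Polyadenylated RNA of 15 mouse hearts was sequenced, 3 per group. The deposited table gives FPKM for 54532 genes, which the authors computed, with each gene's length and position on GRCm38. Per the submitters' processing notes, CASAVA, HISAT2 2.0.5, featureCounts 1.5.0-p3 and DESeq2 1.20.0 were used on GRCm38 (mm10). Whole reads could be recovered from FPKM and gene length for 100% of values within 0.05 of a whole number, and they gave the depth and the total-read scalings. The scale of the FPKM was not total reads but a library size per sample, which lay within 0.997 to 1.004 times a median-of-ratios size. A change of composition between groups therefore enters the values less than it would with total reads.

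Values were tested as log2(FPKM + 0.5) with limma 3.58.1 in R 4.3.3, in 1 model of 5 groups with 10 residual degrees of freedom, a variance trend and Benjamini-Hochberg adjustment over the 15321 genes that reached 0.5 FPKM in 3 libraries. A fold change on this scale understates the change of low genes. An adjusted p under 0.05 is a call. The script was tested on simulated data. Differences of differences were contrasts of the same fit. Gene lists are described by counts and medians, without a set test. Members and lists were chosen with earlier results of these data known, and the interferon motif was chosen after seeing the data. Genes were named by a rule. They are Nat10, the 12 highest and 12 lowest called protein-coding genes of known function, histocompatibility genes left out, whose libraries did not overlap and whose higher group averaged 1 FPKM or more, up to 4 members of each list by adjusted p, the uncalled member with the highest level, a panel, and the 4 highest and lowest for each difference of differences. The rule named 253 genes, of which a few are not reported here. Genes named as a list's exceptions, those with printed promoters, and Ndufa12, Cpt1a, Lpl, Bdh1, Eef1a2, Mars, Klf15, Casq1, Camk2d, Flt1, Ddx3y, H2-Q6, Trib3, Ttn, Myl7, Myl4, Dkk3, Stard10 and mt-Tg were picked after their values were seen. Promoters and gene models are from RefSeq GRCm38.p6 and GENCODE. Alternatives were other pseudocounts, filters, scalings, voom, no trend, a replicate block, the 2 groups alone and leaving out each library. Symbols shared by several genes number 203 in the table and were matched by identifier.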

Additional observations from a re-analysis of the deposited data

Results flagged for a closer look

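The contrast of the substitutions differed from CKO_GFP minus CKO_NAT10 in 279 genes, and from CKO_GFP minus ff_GFP in 203 genes, by limma's test of the difference of differences. Both counts include the 3 CKO_GFP libraries, which differ among themselves in interferon and antigen presentation genes and in Xist. Without CKO_GFP replicate 1 the counts were 583 and 388. The first count was also moved by more than 1.5 times without CKO_G641E replicate 1 (91), 2 (178) or 3 (139), CKO_NAT10 replicate 1 (111) or 2 (112), or CKO_K209A replicate 1 (113) or 2 (127). The second was so moved without any ff_GFP library (53 to 85), any CKO_G641E library (77 to 79), or CKO_K209A replicate 1 (47) or 2 (73).

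The genes with the most negative difference against CKO_GFP minus CKO_NAT10 were Atf3 (-3.73), Otud1, a deubiquitinase (-2.35), Rxrg (-2.04) and Dgat2 (-2.02). Those with the most positive were Stfa2 (2.39), a stefin, Cdh3, a cadherin (1.54), Cish (1.53) and Ccnjl (1.44). Atf3, Dgat2, Cish and Ccnjl were called in all 22 alternative settings. Otud1 and Stfa2 lost the call in 13 settings each, Rxrg in 7 and Cdh3 in 3. Otud1 was at 8.59, 6.46 and 9.93 FPKM in CKO_K209A, 20.9, 10.1 and 14.9 in CKO_G641E, 26.4, 39.9 and 11.3 in CKO_GFP and 6.53, 6.64 and 9.79 in CKO_NAT10.

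Against CKO_GFP minus ff_GFP the most negative were Atf3 (-4.21), Ctgf (-3.33) and Acta1 (-3.20), and the most positive were Ccnjl (1.74), Lrrc15 (1.57), Cdh3 (1.49) and Rbm18 (1.37). Atf3 and Ccnjl were called in all 22 alternative settings, Lrrc15 in all but voom, while Cdh3 lost the call in 10, Ctgf in 5, and Acta1 and Rbm18 in 4 each. Lrrc15, a matrix-associated membrane protein, was lower in CKO_K209A than in CKO_G641E (-2.05), at 0.176, 0.140 and 0.0884 FPKM against 2.18, 2.14 and 2.06 FPKM, and lower still between CKO_GFP and ff_GFP, at 0.320, 0.112 and 0.0882 FPKM against 7.15, 7.75 and 8.31 FPKM.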

How the results depend on the processing

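Of 203 named genes called between the substitutions 181 were called under each of the 17 alternatives run, and 22 lost the call under 1 or more. Many of these genes were named for a small adjusted p or a large difference, which favours stable calls. Of 50 named genes not called, 16 were called in 1 setting or more. Aldoa, not called as reported (-0.06), was called higher after quantile normalization (0.42), and the cause was not tested. With 1 library left out the count of called genes ranged from 5188 to 5796, with 2449 to 2774 higher and 2737 to 3022 lower. With total reads as the scale 4513 genes were called higher. The replicate block gave 6233 genes, and replicate numbers are only numbers here, since deviations of same-numbered libraries correlated at -0.05, -0.03 and 0.002. Against CKO_GFP minus CKO_NAT10 the counts of 279, 38 higher and 241 lower became 84 higher and 137 lower after quantile normalization, 167 with 91 higher and 76 lower with total reads, 71 higher and 122 lower with total reads outside mitochondrial genes, and 185 with 154 lower without a variance trend. With 1 library left out they ranged from 91 to 583, 12 to 126 and 79 to 457. Against CKO_GFP minus ff_GFP the 141 lower genes became 91 with the filter above 0, 93 with total reads and 89 without a trend. With 1 library left out the counts ranged from 47 to 388, 16 to 116 higher and 31 to 272 lower. The cause of these shifts was not tested. Depth limits genes of few reads, since 10% of values were at 8 reads or fewer, and 3 libraries per group limit the spread estimate.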

Other observations

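Most transfer RNAs and the ribosomal RNAs of the mitochondrial genome were also called lower in CKO_K209A. The libraries were made from polyadenylated RNA, and how fully they hold these RNAs was not tested. How these calls depend on the scaling is not reported here. Of 20 tested mitochondrial transfer RNA genes 15 were called lower and 0 higher by limma, with a median of -1.51 on the log2 scale, and both mitochondrial ribosomal RNAs were lower. mt-Tg, the glycine transfer RNA, was listed at 0 in all 3 CKO_K209A libraries and at 59.3, 58.1 and 40.1 FPKM in CKO_G641E, 20.4, 18.7 and 22.6 FPKM in CKO_GFP, 37.3, 53.6 and 40.9 FPKM in CKO_NAT10 and 38.4, 1.10 and 0 FPKM in ff_GFP. The ff_GFP libraries thus differed widely among themselves, and 2 of them were as low as CKO_K209A or nearly so.

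Fewer long noncoding RNAs were called higher than among all tested genes, of which 19.6% were higher and 21.2% lower. Of 384 tested lincRNA genes 45 were higher (11.7%) and 82 lower (21.4%), and of 420 antisense genes 26 were higher (6.19%) and 67 lower (15.95%). The share of genes called also rose with level. Among the 3831 tested genes of lowest level 9.79% were higher and 12.6% lower. Among the 3830 of highest level these shares were 28.6% and 31.0%. The noncoding genes were not compared with coding genes of like level, so the part of level in their lower share was not tested. Whether the counting used strand is not given in the sources used here, so reads of an antisense gene and of its partner cannot be told apart.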
